A study of Macaca mulatta with 24 samples.

Results

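The interaction of testosterone and diet was measured by RNA-seq in omental white adipose tissue (WAT), a visceral fat depot, of all 24 female rhesus macaques of the series, which form a 2 x 2 design with 4 groups of 6 animals. Young adult animals carried testosterone implants or control implants of cholesterol and ate monkey chow or a high-fat Western-style diet (WSD). The groups were the controls (*C*, cholesterol implant and chow), testosterone on chow (*T*), cholesterol implant with the Western-style diet (*WSD*) and both treatments (*T* + *WSD*). Treatment lasted 3 years and the biopsies were taken in year 3. The labels give an age of 4 years, the methods of the study give an older one, and age was not used. The study chose animals that represented the fat mass and insulin levels of their groups, so they are not a random draw from each group. The implants mimic raised androgens, and each of the 24 libraries came from 1 animal.

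For every gene the contrast was (*T* + *WSD* minus *WSD*) minus (*T* minus *C*), on the log2 scale. This interaction coefficient is the testosterone effect under the Western-style diet minus the testosterone effect on the control diet. It is equally the diet effect under testosterone minus the diet effect without it. A positive coefficient means that testosterone went with higher expression under the Western-style diet than on chow, relative to the untreated animals of the same diet. A coefficient of 0 means that the 2 effects add on the log2 scale. The samples and all 15207 genes that passed the filter on low counts entered 1 fit, and a gene whose coefficient had an adjusted p under 0.1 is called an interaction gene. Levels are given as CPM, counts scaled to a common library size of 1e+06, comparable between animals for 1 gene but not between genes, since gene length was not used.

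Omental WAT stores triglyceride in adipocytes, which take up and make fatty acids, release them on demand and burn a part in their mitochondria. The depot also holds macrophages, vessels, fibroblasts and a covering of mesothelial cells. In females raised androgens together with a fat-rich diet go with visceral fat gain and insulin resistance. The synthesis of cholesterol is driven by the SREBP transcription factors, while insulin acts on fat cells through the insulin receptor substrates. SR proteins and their kinases sit in nuclear speckles and control how introns are removed, also from their own transcripts.

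Counts per library ran from 6899185 to 28270776. In 8 libraries, 2 of each group, the gene ENSMMUG00000038258 took 9.92% to 54.7% of the counts, against 0.879% to 2.51% in the other 16. They are called the library batch here, a name drawn from the counts and not from the labels. Replicates are numbered 1 to 6 in *C*, 7 to 12 in *T* + *WSD*, 13 to 18 in *T* and 19 to 24 in *WSD*. The interaction contrast thus sets replicates 1 to 12 against replicates 13 to 24. An order of processing along these numbers is not in the labels, could not be separated from the interaction and was not tested. Adipocyte genes were abundant in every group. ADIPOQ, the gene of adiponectin, had a mean of 894 ± 359 CPM (SD, n = 6, as for each group) in *C*, of 1541 ± 500 under testosterone on chow, of 1116 ± 489 under the Western-style diet alone and of 1267 ± 368 under both.

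The testosterone effect depended on diet in 123 genes, 0.809% of those tested, and in each of them its sign on chow was opposite to its sign under the Western-style diet. The coefficient was positive in 79 genes (0.519%) and negative in 44 (0.289%). Positive coefficients had a median of 1.03 on the log2 scale and ran from 0.47 to 6.28, and negative ones had a median of -0.65 and ran from -4.43 to -0.37, against a median of -0.016 over all tested genes. In edgeR's quasi-likelihood test the smallest adjusted p was 0.000461, and 44 genes, 36 positive and 8 negative, were below 0.05. Opposite signs of the 2 testosterone effects were seen in 46.1% of all tested genes. The 123 were chosen for a large difference between these effects, which by itself favours opposite signs, so their count is no further test. With other normalizations the calls shifted toward positive coefficients, to 73 positive and 22 negative with DESeq2's size factors and to 109 and 20 with upper-quartile scaling, where 128 of 129 had opposite signs, against 79 and 44 here. Leaving out single animals moved the count between 40 and 527.

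**Figure D1:**
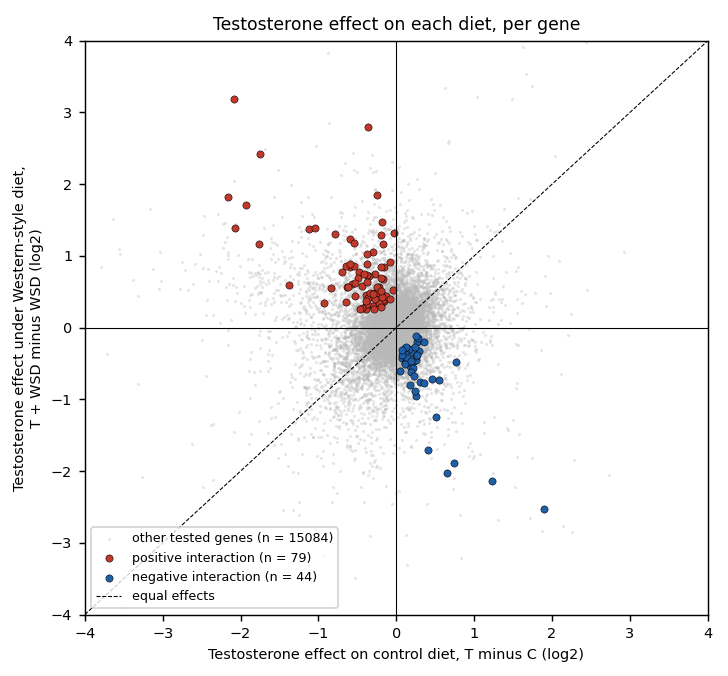
Each point is 1 of 15207 tested genes, with the testosterone effect on chow (*T* minus *C*, log2) on the x axis and the testosterone effect under the Western-style diet (*T* + *WSD* minus *WSD*, log2) on the y axis; 15 genes, of which 1 is an interaction gene, lie outside the axes. The 79 genes with a positive interaction (red) lie in the upper left part, the 44 with a negative one (blue) in the lower right, and the dashed line marks equal effects on both diets.

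Over the 79 positive genes, the median testosterone effect was -0.37 on chow and 0.61 under the Western-style diet, on the log2 scale. The diet effect turned in the same way, with a median of -0.37 without testosterone, where it was below 0 in 75 genes, and 0.60 under testosterone, where it was above 0 in all 79. These genes were thus lower in the animals given 1 treatment and back up, or higher, in those given both. When the genes were sorted by the group whose mean lay farthest from the other 3, *T* + *WSD* was that group, at the top, in 53, *C* at the top in 11, *WSD* at the bottom in 8 and *T* at the bottom in 7. Both testosterone effects had an unadjusted p under 0.05 in 49 genes, the one under the Western-style diet alone in 27 and the one on chow alone in 3. These counts describe the pattern of genes already chosen for their coefficient and are not further tests.

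Over the 44 negative genes, the median testosterone effect was 0.23 on chow and -0.47 under the Western-style diet. The diet effect had a median of 0.26 without testosterone, where it was above 0 in 41 genes, and -0.39 under testosterone, where it was below 0 in all 44. *T* + *WSD* stood apart at the bottom in 27 genes, *WSD* at the top in 12 and *T* at the top in 5, and *C* in none. In 27 genes only the testosterone effect under the Western-style diet had an unadjusted p under 0.05, in 15 both had one and in 2 only that on chow.

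The 6 *T* + *WSD* animals lay wholly above the 6 *WSD* animals in 45 of the 79 positive genes and wholly below them in 20 of the 44 negative ones, while such a gap between these groups was seen in 2.84% of all tested genes. *T* and *C* did not overlap in 7 positive genes and 1 negative gene, against 0.263% of all tested genes. The interaction genes were chosen on the same values.

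The positive genes were led by ANKRD10 (ENSMMUG00000018929), an ankyrin repeat gene. ANKRD10 was measured between 58.5 and 65.4 CPM in *C* (median 63.2), between 43.4 and 51.7 in *T* (median 49.6), between 43.2 and 52.7 in *WSD* (median 49.8) and between 58.6 and 73.9 in *T* + *WSD* (median 66.1). Every animal given neither or both treatments lay above every animal given 1. The coefficient was 0.78 ± 0.10 (SE, adjusted p = 0.000461), with a testosterone effect of -0.37 ± 0.07 on chow and 0.41 ± 0.07 under the Western-style diet. It was called in each alternative run for single genes, among them the 16 libraries outside the library batch.

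PNISR (ENSMMUG00000005925) encodes an arginine- and serine-rich protein of the nuclear speckles. It ran from 89.4 to 110 CPM in *C* (median 96.2), from 67.6 to 86.8 in *T* (median 76.2), from 70.2 to 81.6 in *WSD* (median 75.9) and from 91.7 to 116 in *T* + *WSD* (median 99.9). Again *C* and *T* + *WSD* both lay above *T* and *WSD* without overlap, and the coefficient was 0.79 ± 0.11 (SE, adjusted p = 0.00109). LUC7L3 (ENSMMUG00000010117), a partner of the U1 particle that marks the start of introns, was highest in *C*, from 93.4 to 181 CPM (median 118), and ran from 72.5 to 99.9 in *T* (median 81.9), from 73.3 to 107 in *WSD* (median 78.1) and from 96.7 to 117 in *T* + *WSD* (median 104). Its groups overlapped at their edges, and its coefficient was 1.0 ± 0.18 (SE, adjusted p = 0.0197).

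These genes belong to a list of 33 tested SR and HNRNP splicing factors with their partners and kinases, of which 4 were interaction genes (PNISR, LUC7L3, LUC7L and CLK4), all positive. In the list, 10 members (30.3%) had a positive coefficient with an unadjusted p under 0.05 and 2 (6.06%) a negative one, where 6.22% and 7.26% of all tested genes did. LUC7L, a relative of LUC7L3, had a coefficient of 0.55 ± 0.14 (SE, adjusted p = 0.0935) and CLK4, a kinase of SR proteins, one of 0.74 ± 0.19 (adjusted p = 0.0997). Of 37 alternatives, LUC7L lost its call in 22 and CLK4 in 26, while PNISR and LUC7L3 each lost it in 1. SRSF5 (0.59, adjusted p = 0.106), RBM25 (0.39, adjusted p = 0.134) and SRRM2 (1.18, adjusted p = 0.219) did not pass, and SRRM2 was counted at a median of only 0.706 to 1.34 CPM per group. The negative members at the threshold were HNRNPM (-0.45) and SRSF4 (-0.38), and the median over the list was 0.05. The count of 10 was 8 outside the library batch, 9 with the adipocyte list as a covariate and 9 to 11 when single animals were left out.

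OGT (ENSMMUG00000015238), the enzyme that attaches N-acetylglucosamine to nuclear and cytosolic proteins, ran from 182 to 240 CPM in *C* (median 201), from 133 to 204 in *T* (median 175), from 140 to 192 in *WSD* (median 165) and from 202 to 258 in *T* + *WSD* (median 225). *T* + *WSD* lay above *WSD* without overlap, and the coefficient was 0.76 ± 0.14 (SE, adjusted p = 0.0289). ZFC3H1, a part of the nuclear RNA surveillance machinery, had a coefficient of 0.61 ± 0.12 (adjusted p = 0.0289), with the *T* + *WSD* animals between 71.6 and 82.8 CPM and the *WSD* animals between 48.5 and 64.1. Further called genes of RNA handling with a positive coefficient were picked out after their values were seen. They were CCNL2 (0.69, adjusted p = 0.0396), a cyclin of the speckles, and SREK1 (0.69, adjusted p = 0.0436), a regulator of SR proteins. NKTR (0.48, adjusted p = 0.0337), a cyclophilin with an SR domain, and ZRANB2 (0.56, adjusted p = 0.0475), a zinc finger splicing factor, were also among them. Called genes of RNA handling with a negative coefficient included PRPF31 (-0.46) and DDX56 (-0.49).

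A second shape among the positive genes was a rise in *T* + *WSD* alone. INPP5F (ENSMMUG00000009558), a phosphoinositide phosphatase, ran from 41.05 to 68.7 CPM in *C* (median 56.4), from 44.4 to 63.2 in *T* (median 46.5), from 37.9 to 61.2 in *WSD* (median 53.1) and from 72.2 to 106 in *T* + *WSD* (median 98.8). The 3 other groups overlapped while *T* + *WSD* lay above all of them, and the coefficient was 1.05 ± 0.19 (SE, adjusted p = 0.0183). ABCC5 (ENSMMUG00000005515), an exporter of cyclic nucleotides, had a median of 22.8 CPM in *C*, of 23.3 in *T*, of 20.6 in *WSD* and of 43.4 in *T* + *WSD*, where the lowest animal, at 34.1 CPM, exceeded the highest of the other groups, at 32.0. Its coefficient was 0.99 ± 0.20 (adjusted p = 0.0337), with a testosterone effect of -0.08 on chow and 0.91 under the Western-style diet.

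GPR21, an orphan receptor (coefficient 1.26 ± 0.23, adjusted p = 0.0183), ran from 12.7 to 14.98 CPM in *T* + *WSD* and from 6.61 to 9.24 in *WSD*. The gene lies inside the span of RABGAP1 in RefSeq's table of another assembly, and RABGAP1 itself had a coefficient of 0.03 (adjusted p = 0.961). Whether the reads came from the receptor was not tested. TDRD6, a tudor protein known from germ cells (1.72 ± 0.31, adjusted p = 0.0197), and DZIP1L, a protein of the ciliary base (1.19 ± 0.23, adjusted p = 0.0289), were counted at medians of 1.51 to 4.08 and 8.65 to 15.96 CPM per group.

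Several positive rows carry the symbols of small RNA genes. Y_RNA (ENSMMUG00000028452), a class of RNA bound by the Ro protein, ran from 8.70 to 29.97 CPM in *C* (median 14.7), from 2.32 to 6.87 in *T* (median 4.10), from 2.37 to 8.27 in *WSD* (median 4.69) and from 7.63 to 19.2 in *T* + *WSD* (median 11.4). *C* did not overlap with *T*, while *WSD* and *T* + *WSD* met at their edges, and the coefficient was 3.46 ± 0.51 (SE, adjusted p = 0.00179). Of the other 3 tested rows with this symbol none was called, with coefficients of 1.48, 1.36 and -0.18. The row of the microRNA gene MIR5047 (1.15 ± 0.19, adjusted p = 0.00851) had medians of 19.6, 14.2, 14.4 and 21.5 CPM over *C*, *T*, *WSD* and *T* + *WSD*. Which transcripts gave the reads of such rows was not tested, since they can lie inside longer genes and neither the counting tool nor its strand setting is given in the sources used here. Of the 79 positive genes, 21 had no symbol, against 1 of the 44 negative ones.

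**Figure D2:**
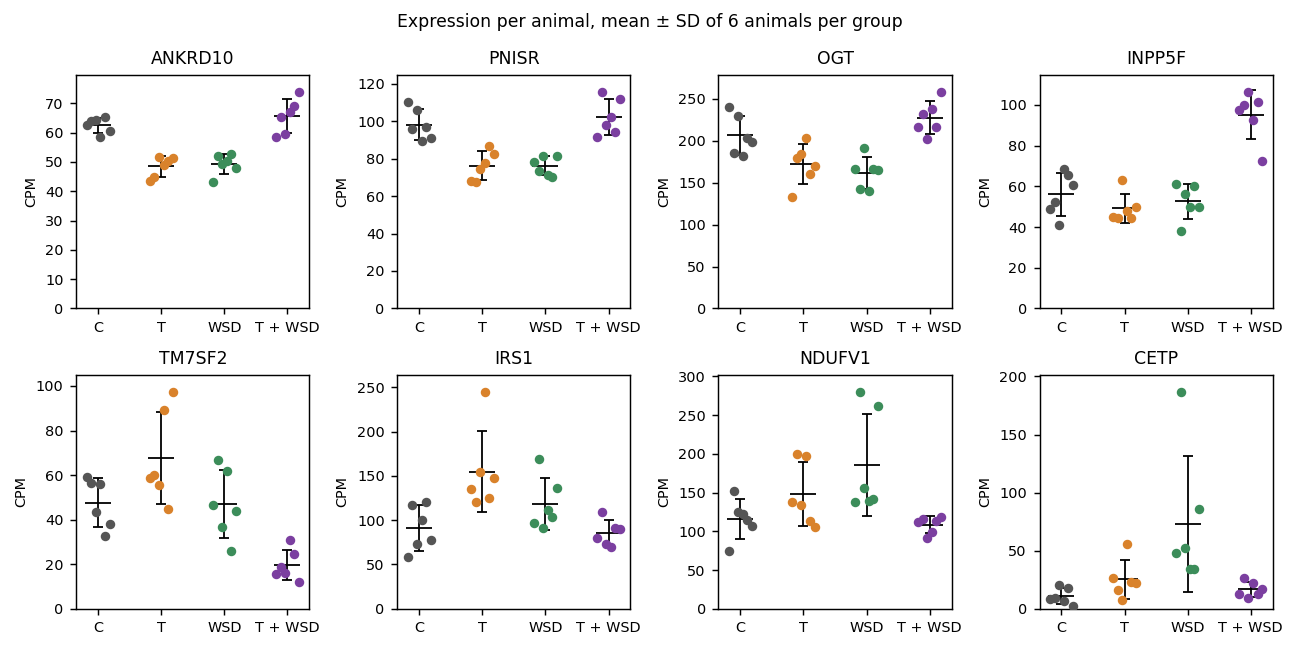
Expression (CPM, y axes from 0) of 8 interaction genes in each of the 24 animals, with the 4 groups on the x axis; points are animals and black bars the mean ± SD of 6. ANKRD10, PNISR and OGT were lower with 1 treatment than with neither or both, INPP5F was high in *T* + *WSD* alone, TM7SF2 was low in *T* + *WSD*, IRS1 was high in *T*, and NDUFV1 and CETP were high in *WSD*, where the highest animal was at 280 CPM for NDUFV1 and at 186 for CETP.

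The negative genes were led by TM7SF2 (ENSMMUG00000018773), a sterol reductase late in cholesterol synthesis. It ran from 32.7 to 59.1 CPM in *C* (median 49.8), from 44.9 to 97.2 in *T* (median 59.3), from 26.0 to 66.7 in *WSD* (median 45.4) and from 12.2 to 30.9 in *T* + *WSD* (median 17.4). *T* + *WSD* lay below *C* and *T* without overlap and overlapped with *WSD*. The coefficient was -1.75 ± 0.35 (SE, adjusted p = 0.0337), from 0.51 ± 0.24 on chow and -1.25 ± 0.25 under the Western-style diet. ADH1B (ENSMMUG00000047850), an alcohol dehydrogenase abundant in fat cells, ran from 437 to 1829 CPM in *C* (median 1190), from 1331 to 3667 in *T* (median 1639), from 342 to 1354 in *WSD* (median 926) and from 132 to 543 in *T* + *WSD* (median 204). Its coefficient was -2.63 ± 0.54 (adjusted p = 0.0396). A further row with the symbol ADH1B, ENSMMUG00000018738, had a coefficient of -4.79 ± 1.31 (adjusted p = 0.123), and reads shared between the 2 rows make both uncertain.

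CETP (ENSMMUG00000017563), which moves cholesteryl esters between lipoproteins, had another pattern, with each single treatment at higher levels and the combination near the controls. It ran from 2.49 to 20.2 CPM in *C* (median 8.84), from 7.63 to 56.0 in *T* (median 22.7), from 33.8 to 186 in *WSD* (median 50.2) and from 9.65 to 26.6 in *T* + *WSD* (median 15.3). *WSD* lay above *C* and *T* + *WSD* without overlap, and the coefficient was -3.36 ± 0.71 (SE, adjusted p = 0.0417). IRS1 (ENSMMUG00000019467), the adaptor that passes the insulin signal from its receptor, was highest in *T*, from 120 to 244 CPM (median 142), and ran from 58.0 to 121 in *C* (median 89.2), from 91.1 to 169 in *WSD* (median 108) and from 69.2 to 109 in *T* + *WSD* (median 84.9). Its coefficient was -1.24 ± 0.28 (SE, adjusted p = 0.0563), from 0.76 ± 0.20 on chow and -0.47 ± 0.20 under the Western-style diet. The call was lost in 11 alternative runs and kept in 26. IRS1 was the only called gene among 25 tested genes of insulin signalling, and the other 24 were at an unadjusted p of 0.05 or more.

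FLYWCH1, a zinc finger gene (-0.56 ± 0.12, adjusted p = 0.0502), was the negative gene in which *T* lay wholly above *C*, from 36.5 to 45.9 against 29.2 to 35.6 CPM. The other negative genes named by rule included RSL1D1, a ribosome biogenesis factor (-0.55 ± 0.11, adjusted p = 0.0417), DDX56, a nucleolar helicase (-0.49, adjusted p = 0.0426), and PRPF31, a core protein of the spliceosome (-0.46, adjusted p = 0.0426). RSL1D1 ran from 68.8 to 79.7 CPM in *T* + *WSD* and from 86.8 to 113 in *WSD*, and PRPF31 from 25.2 to 27.6 and from 30.7 to 37.9, each without overlap. ZNF768, a zinc finger gene (-0.64, adjusted p = 0.0417), and HSPBP1, a partner of HSP70 (-0.66, adjusted p = 0.0669), completed this end of the list with CARS2 and COQ8A, which act in mitochondria. HSPBP1 lost its call in 15 alternative runs and kept it in 22.

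Genes of mitochondria had negative coefficients as a group. Of 36 tested nuclear genes of respiratory chain subunits, all 36 had a coefficient below 0, 29 (80.6%) at an unadjusted p under 0.05, against 7.26% of all tested genes, and 2 were called. The median coefficient over the list was -0.67, with a median testosterone effect of 0.12 on chow and -0.59 under the Western-style diet. No member had a positive coefficient at that threshold. The members span complex I to ATP synthase, with COX5A (-1.21), CYC1 (-1.19) and NDUFV1 (-1.13) at the low end and SDHC (-0.12) nearest to 0.

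NDUFV1 (ENSMMUG00000018526), the subunit of complex I that binds NADH, ran from 74.5 to 152 CPM in *C* (median 118), from 105 to 200 in *T* (median 136), from 137 to 280 in *WSD* (median 148) and from 90.8 to 119 in *T* + *WSD* (median 112). *T* + *WSD* lay below *WSD* without overlap and overlapped with *C* and *T*, and the coefficient was -1.13 ± 0.29 (SE, adjusted p = 0.0965). CYC1 (-1.19, adjusted p = 0.123), UQCRC1 (-0.95, adjusted p = 0.143) and UQCRC2 (-0.94, adjusted p = 0.144), all of complex III, did not pass.

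In the list of the TCA cycle and fatty acid oxidation, 21 of 28 tested genes (75.0%) had a negative coefficient at an unadjusted p under 0.05 and none a positive one, with a median of -0.75, but none was called. HADHA, of the long-chain fatty acid cycle, was the nearest (-0.78 ± 0.22, adjusted p = 0.127), ahead of SDHA (-0.90, adjusted p = 0.145) and IDH3B (-0.82, adjusted p = 0.145). Medians of HADHA were 207, 264, 280 and 228 CPM over *C*, *T*, *WSD* and *T* + *WSD*, so that each single treatment sat above both other groups. For mitochondrial import, prohibitins and chaperones the count was 12 of 19 (63.2%, median -0.45), and TIMM44, which tethers the import motor to the inner membrane, was called (-1.07 ± 0.27, adjusted p = 0.0952). TRAP1 (-0.99, adjusted p = 0.107), HSPA9 (-1.01, adjusted p = 0.123) and PHB2 (-0.61, adjusted p = 0.123) did not pass. For the mitochondrial ribosome it was 15 of 24 (62.5%, median -0.47), and MRPL37 was called (-0.62 ± 0.15, adjusted p = 0.0908). MRPL37 ran from 44.7 to 47.4 CPM in *T* + *WSD*, below every *WSD* animal, the lowest of which was at 52.5. These mitochondrial calls were close to the threshold, and of 37 alternatives NDUFV1 and TIMM44 lost theirs in 23 each and MRPL37 in 22.

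Further called negative genes with mitochondrial roles, picked out after their values were seen, were CARS2, a tRNA ligase (-0.80 ± 0.17, adjusted p = 0.0417), COQ8A (-2.11 ± 0.49, adjusted p = 0.0794) and COQ6 (-0.99, adjusted p = 0.0974) of coenzyme Q synthesis, ECI1 (-1.18, adjusted p = 0.0812) of fatty acid oxidation, MCAT (-0.71, adjusted p = 0.0819) of mitochondrial fatty acid synthesis, ALDH6A1 (-1.28, adjusted p = 0.0972) of valine breakdown, the outer membrane channel VDAC2 (-0.78, adjusted p = 0.0952), and the ribosomal proteins MRPL10 (-0.51, adjusted p = 0.0908) and MRPL45 (-0.65, adjusted p = 0.0997). COQ8A ran from 89.3 to 428 CPM in *WSD* (median 156) and from 59.5 to 91.3 in *T* + *WSD* (median 66.7). Its *WSD* replicates 20 and 24 were at 422 and 428 CPM, and the next highest was at 190. COQ8A lost its call in 17 alternative runs and kept it in 20.

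**Figure D3:**
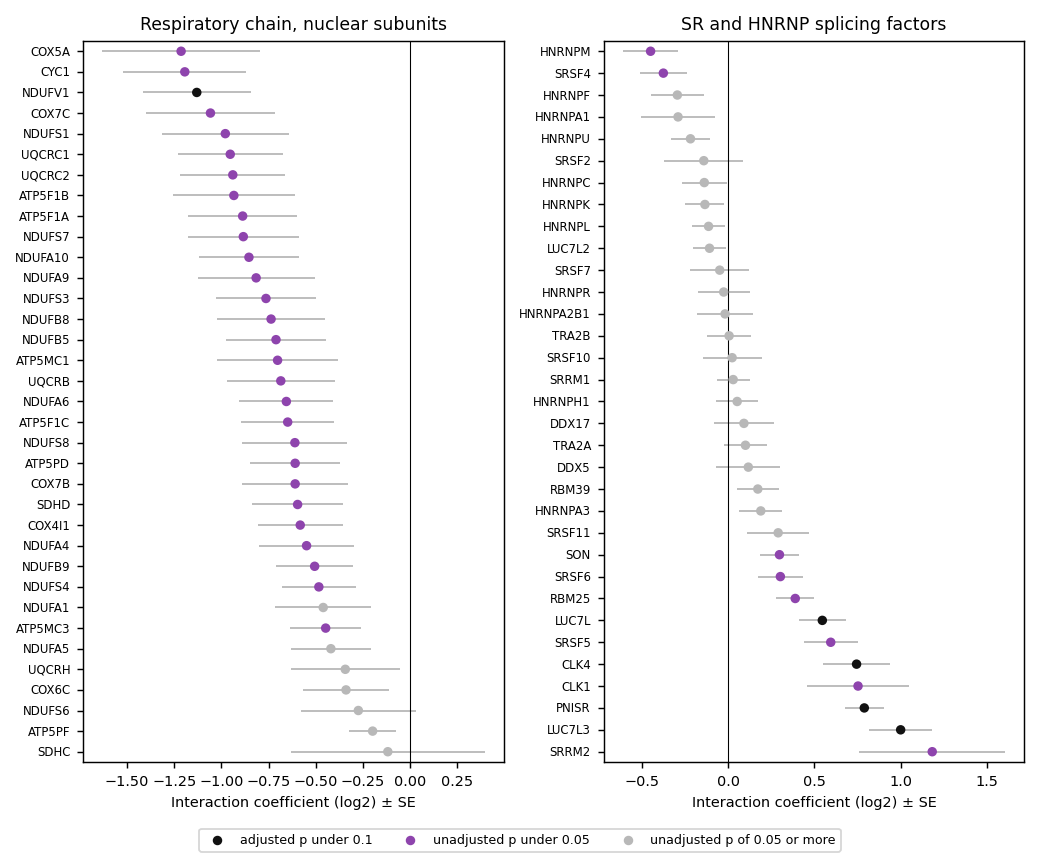
Interaction coefficients (log2, x axis) with SE for 35 of the 36 tested respiratory chain genes and the 33 tested splicing factors, sorted by size; black marks an adjusted p under 0.1, purple an unadjusted p under 0.05 and grey the rest. All 35 respiratory chain genes drawn lie below 0, while the splicing factors spread around 0 with 10 at the positive end and 2 at the negative end in black or purple.

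Per animal, the mean log2 CPM of the respiratory chain list ran from 5.18 to 6.04 in *C* (median 5.91), from 5.56 to 6.37 in *T* (median 5.87), from 5.80 to 6.88 in *WSD* (median 6.10) and from 5.68 to 5.82 in *T* + *WSD* (median 5.69). The *T* + *WSD* animals were close together, and the spread lay in the other groups. *C* replicate 1 was the lowest of its group, at 5.18, and *WSD* replicates 20 and 24 were the highest of theirs, at 6.88 and 6.70. *C* replicate 1 was also the lowest animal on the adipocyte list, at 5.66, and the highest on the mesothelial list, at 7.58, while *WSD* replicate 20 was the highest on the adipocyte list, at 7.65. The 2 lists went together in some other animals and not in others. *T* replicate 14 was the highest of its group on the respiratory chain and adipocyte lists (6.37 and 7.21), and *WSD* replicate 19 the lowest of its group (5.80 and 6.75). *C* replicate 3, the highest of its group on the respiratory chain list at 6.04, was at 6.72 on the adipocyte list. *WSD* replicate 24 was at 7.02 on the adipocyte list, and both lay near the middle of their groups there.

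The adipocyte list (23 tested genes) had 3 members with a negative coefficient at an unadjusted p under 0.05, KLF15 (-1.15, adjusted p = 0.288), PPARGC1A (-1.07, adjusted p = 0.304) and NRG4 (-1.06, adjusted p = 0.307), 13% of the list, none positive, and a median of -0.42. Without *WSD* replicate 20 or outside the library batch none of the adipocyte list was at the threshold. Its mean log2 CPM ran from 5.66 to 7.09 in *C*, 6.73 to 7.21 in *T*, 6.75 to 7.65 in *WSD* and 6.69 to 7.04 in *T* + *WSD*. The defining markers ADIPOQ (-0.60 ± 0.45, adjusted p = 0.600) and PLIN1 (-0.37 ± 0.43, adjusted p = 0.785) did not pass. PPARGC1A, a driver of mitochondrial genes, belongs to this list. In bulk tissue, fewer adipocytes and less RNA per adipocyte cannot be told apart. With the adipocyte list as a covariate the number of respiratory chain genes at the threshold went from 29 to 11 and that of the TCA cycle and fatty acid oxidation from 21 to 8, and 12 interaction genes were called, all positive, in place of 123. Without *C* replicate 1 and *WSD* replicate 20 together these 2 lists gave 13 and 9, and 33 interaction genes were called, 30 positive and 3 negative. Outside the library batch, in 16 of the 24 libraries, these 2 lists gave 9 and 12, and 2 interaction genes were called, both positive. All 123 genes kept their sign there, at an unadjusted p under 0.05. They were chosen on all 24 libraries, these 16 among them, so this is no separate support. With the library batch as a covariate in all 24 libraries, the 2 lists gave 28 and 21. That fit called 131 interaction genes, of which 112 were among the 123. The adipocyte covariate and the pair of left-out animals were chosen after seeing the data, and the part of the adipocyte genes in the mitochondrial result was not tested.

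The mesothelial list (21 tested genes) was low in *T* + *WSD*, where its mean log2 CPM ran from 2.88 to 5.08, against 5.91 to 7.58 in *C*, 5.42 to 6.67 in *T* and 4.30 to 6.32 in *WSD*. In the interaction, 3 members (14.3%) were negative at the unadjusted threshold, against 7.26% of all tested genes. They were the keratins KRT7 (-3.99, adjusted p = 0.172), KRT19 (-1.45, adjusted p = 0.338) and KRT8 (-1.60, adjusted p = 0.370). No member was positive at the threshold or called, and the median was -0.64. Without *C* replicate 1 the count for the mesothelial list was 7, and over all single animals left out it ran from 1 to 7 with medians from -1.22 to -0.40. It was 9 with the adipocyte covariate or without *C* replicate 1 and *WSD* replicate 20. Outside the library batch it was 0, and with the library batch as a covariate it was 2. UPK3B and MSLN, which define mesothelium, averaged 364 and 527 CPM in *C* and 70.3 and 65.9 CPM in *T* + *WSD*. With this list as a covariate 97 interaction genes were called, of which 72 were among the 123, and the respiratory chain count stayed at 29.

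**Figure D4:**
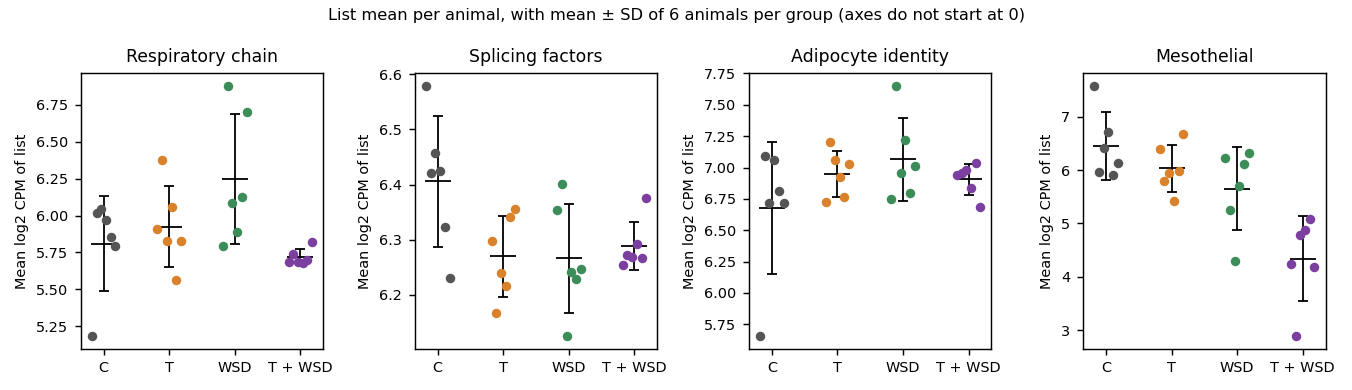
Mean log2 CPM of 4 gene lists in each animal by group, with black bars for the mean ± SD of 6 animals; the y axes do not start at 0 and differ between panels. In the respiratory chain panel the *T* + *WSD* animals lie between 5.68 and 5.82 while 2 *WSD* animals are at 6.70 and 6.88, and in the mesothelial panel *T* + *WSD* is lowest.

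Other housekeeping machinery leaned the same way with smaller coefficients. Of 28 proteasome subunits, 15 (53.6%) were negative at the unadjusted threshold and all 28 lay below 0, with a median of -0.30, the nearest to the test being PSMD3 (-0.53, adjusted p = 0.127), PSMD8 (-0.50, adjusted p = 0.145) and PSMD11 (-0.37, adjusted p = 0.160). The chaperonin TRiC and prefoldin gave 7 of 14 (50.0%, median -0.31), among them PFDN1 (-0.51, adjusted p = 0.121), CCT8 (-0.39, adjusted p = 0.160) and CCT6A (-0.38, adjusted p = 0.215). Translation factors gave 11 of 33 (33.3%, median -0.21), among them EIF3I (-0.41, adjusted p = 0.144), EIF4H (-0.31, adjusted p = 0.155) and EIF2B2 (-0.40, adjusted p = 0.162). No member of these 3 lists was positive at the threshold and none was called. The proteasome count of 15 was 8 without *C* replicate 1, 4 outside the library batch, 8 with the adipocyte covariate and 6 without *C* replicate 1 and *WSD* replicate 20 together, where TRiC and prefoldin gave 6, 1, 5 and 2. That of translation factors was 7 without *C* replicate 2, *C* replicate 6 or *WSD* replicate 20 and 6 outside the library batch. The 51 cytosolic ribosomal proteins stayed near the background, with 4 negative (7.84%), RPS2 (-0.42, adjusted p = 0.222), RPL32 (-0.41, adjusted p = 0.289), RPS25 (-0.37, adjusted p = 0.314) and RPL6 (-0.32, adjusted p = 0.343), none positive and a median of -0.12. Genes of ER stress and heat shock gave 1 of 22 (4.55%, median -0.18), XBP1 (-0.59, adjusted p = 0.276).

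**Figure D5:**
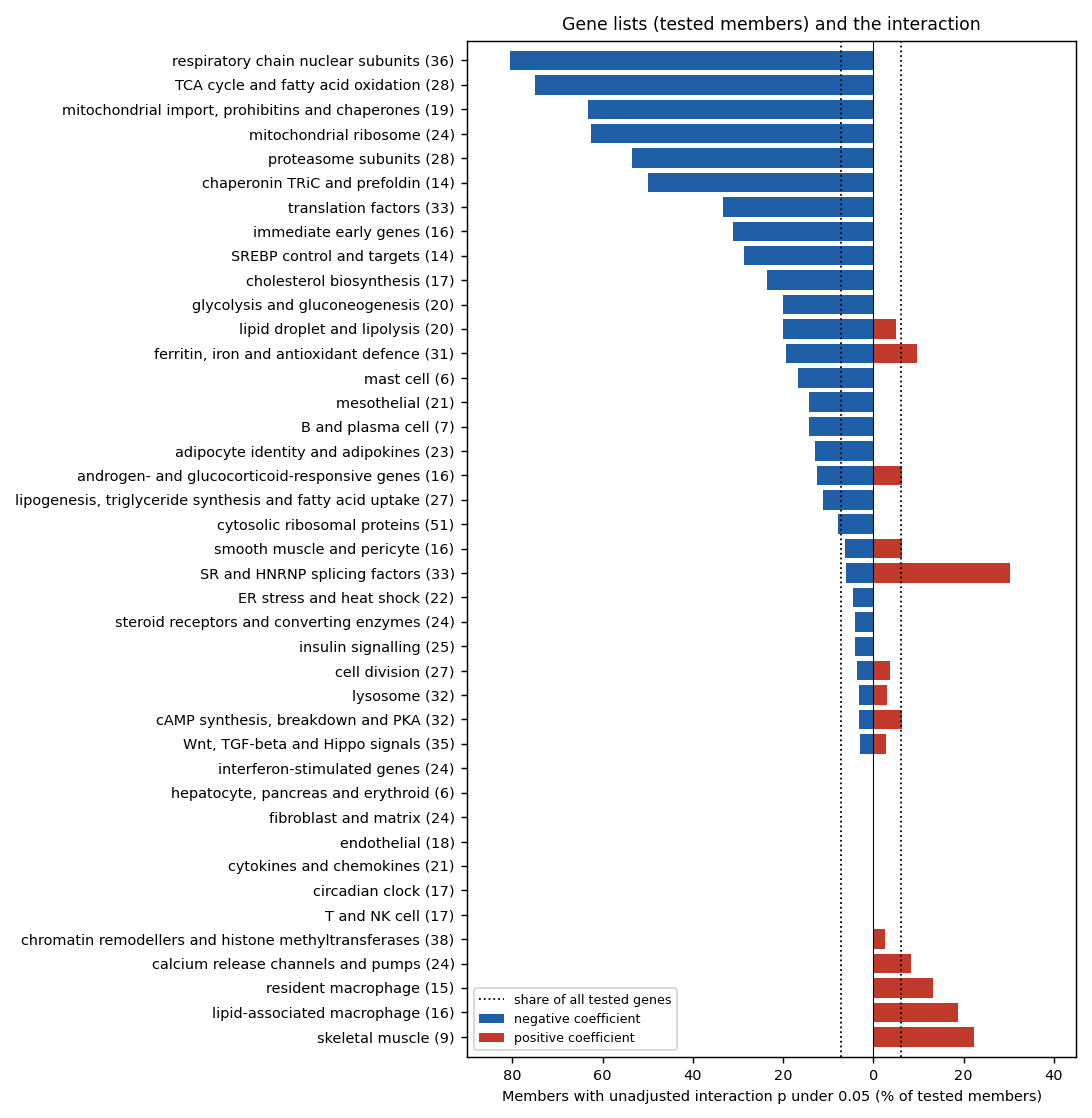
Share of the tested members of 41 gene lists (number in brackets) with an unadjusted interaction p under 0.05, in % on the x axis, with negative coefficients in blue to the left and positive ones in red to the right; dotted lines mark the shares over all tested genes, 7.26% and 6.22%. The mitochondrial lists reach 62.5% to 80.6% on the negative side, and the splicing factors 30.3% on the positive side.

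Sterol genes had negative coefficients, of which 1 passed. In cholesterol biosynthesis 16 of 17 tested genes lay below 0 and 4 (23.5%) were at the unadjusted threshold, with a median of -0.52. Besides TM7SF2 they included NSDHL (-1.0, adjusted p = 0.223) and MVD (-0.92, adjusted p = 0.336). SREBP control and targets gave 4 of 14 (28.6%, median -0.36), among them INSIG1 (-1.35, adjusted p = 0.275), SCAP (-0.37, adjusted p = 0.324) and FASN (-1.77, adjusted p = 0.354), none called. Glycolysis and gluconeogenesis gave 4 of 20 (20%, median -0.45), PFKL (-0.67, adjusted p = 0.177) and PFKM (-0.48, adjusted p = 0.181), which commit sugar to glycolysis, FBP1 (-1.27, adjusted p = 0.289) and PC (-1.19, adjusted p = 0.369). The study named these 3 pathways on the same animals, so their counts are not independent evidence of a direction. None of the 3 lists held a positive member at the threshold. The SREBP count was 0 without *WSD* replicate 20, without *WSD* replicate 24, outside the library batch and with the adipocyte covariate. Over single animals left out it ran from 0 to 5, that of cholesterol biosynthesis from 2 to 8 and that of glycolysis and gluconeogenesis from 2 to 6.

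Genes of fat storage differed among themselves. In lipid droplet and lipolysis 4 of 20 (20%) were negative, PLIN5 (-2.76, adjusted p = 0.172), a droplet protein that contacts mitochondria, CIDEB (-1.81, adjusted p = 0.275), PNPLA3 (-1.69, adjusted p = 0.315) and ABHD5 (-0.55, adjusted p = 0.345), while 1 (5%), PLIN3 (1.07, adjusted p = 0.197), was positive, and the median was -0.46. PLIN5 was low throughout, with medians of 0.401, 2.54, 0.759 and 0.640 CPM over *C*, *T*, *WSD* and *T* + *WSD*. In lipogenesis, triglyceride synthesis and fatty acid uptake 3 of 27 (11.1%) were negative, GPAT4 (-0.37, adjusted p = 0.128), MOGAT2 (-5.37, adjusted p = 0.188) and AGPAT2 (-1.0, adjusted p = 0.349), none positive, with a median of -0.43. MOGAT2 rested on *WSD* replicate 21, at 136 CPM, since every other animal lay at or below 1.46. CIDEB likewise had 1 high animal, *T* replicate 17 at 14.5 CPM, with every other animal at or below 2.54. Over single animals left out, the negative count ran from 2 to 5 for lipid droplet and lipolysis and from 2 to 6 for lipogenesis.

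In the 11 genes that the study called synergistic, the testosterone effect on chow was close to 0, from -0.03 for DDT to 0.10 for FTL and VPS13C. By edgeR's test all 11 had an unadjusted interaction p under 0.05, 8 positive and 3 negative. Their adjusted p ran from 0.111 to 0.219, so that none was called in the main fit. The study had called them with DESeq2 at an adjusted p under 0.1. It also asked for the same direction of the testosterone effect on both diets, which none of the 123 interaction genes showed. Each of the 11 was called in at least 1 alternative run. The study chose them on these animals, so these results are no independent evidence. *T* + *WSD* stood apart from the other 3 groups in each. FTL, the light chain of ferritin, the iron store, ran from 279 to 446 CPM in *C*, 324 to 423 in *T*, 310 to 493 in *WSD* and 541 to 850 in *T* + *WSD*, where every animal lay above every other (coefficient 0.75 ± 0.20, adjusted p = 0.111). RYR2, a calcium release channel, had medians of 3.44, 3.09, 2.49 and 11.4 CPM in the same order of groups (2.20 ± 0.62, adjusted p = 0.127). VPS13C, a lipid transfer protein, ran from 473 to 544 CPM in *T* + *WSD*, and its highest *T* animal was at 473 as well (0.31 ± 0.11, adjusted p = 0.219).

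KLF8 (0.64, adjusted p = 0.160) and ZNF589 (0.64, adjusted p = 0.160), which are zinc finger genes, NIN (0.38, adjusted p = 0.199), a protein of the centrosome, CDC42BPA (0.30, adjusted p = 0.206), a kinase, and ERC1 (0.29, adjusted p = 0.182), a scaffold of vesicle release, were also highest in *T* + *WSD*. CCT8 (-0.39, adjusted p = 0.160), a subunit of the chaperonin, DDT (-1.09, adjusted p = 0.162), a relative of MIF, and PHB2 (-0.61, adjusted p = 0.123), a prohibitin, were lowest in it.

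Ferritin, iron and antioxidant genes split by sign. Of 31 tested, 3 (9.68%) were positive, FTL, FTH1 (0.61, adjusted p = 0.241), its heavy chain, and TXNRD1 (0.38, adjusted p = 0.325), and 6 (19.4%) were negative, led by KEAP1 (-0.43, adjusted p = 0.154), the sensor of oxidants, with DDT, MIF, PRDX5, PRDX6 and PRDX2, around a median of -0.03. Calcium release channels and pumps gave 2 positive genes of 24 (8.33%), RYR2 and RYR3 (1.71, adjusted p = 0.306), and no negative one (median 0.01). In cAMP synthesis, breakdown and PKA, PDE7A (0.74, adjusted p = 0.127) and ADCY4 (0.52, adjusted p = 0.206) were positive (6.25%) and PDE3B (-1.25, adjusted p = 0.276), which insulin uses to restrain lipolysis, negative (3.12%), of 32 (median -0.06).

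Macrophage genes leaned to positive coefficients without a call. In the lipid-associated macrophage list 3 of 16 (18.8%) were positive, TREM2 (1.78, adjusted p = 0.258), SPP1 (2.36, adjusted p = 0.289) and ITGAX (1.70, adjusted p = 0.307), none was negative, and the median was 0.44. SPP1, which encodes osteopontin, had medians of 5.34, 5.90, 7.62 and 48.9 CPM over *C*, *T*, *WSD* and *T* + *WSD*, but its animals overlapped between groups. In the resident macrophage list 2 of 15 (13.3%) were positive, the scavenger receptors MSR1 (1.56, adjusted p = 0.329) and STAB1 (0.85, adjusted p = 0.330), none negative, with a median of 0.23. Without *C* replicate 6 no member of either list was at the threshold.

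Genes of hormone action stayed below the test. Of 24 steroid receptors and converting enzymes 1 was negative (4.17%), HSD17B10 (-0.44, adjusted p = 0.266), a mitochondrial dehydrogenase, and none positive (median -0.12). Of 16 androgen- and glucocorticoid-responsive genes, GLUL (-1.40, adjusted p = 0.162) and ERRFI1 (-0.94, adjusted p = 0.290) were negative (12.5%) and SLC45A3 (0.88, adjusted p = 0.289) positive (6.25%), with a median of -0.45. Immediate early genes, which respond to handling and stress within minutes, all lay below 0, 5 of 16 (31.2%) at the threshold, FOSL1 (-3.56, adjusted p = 0.166), FOSB (-2.37, adjusted p = 0.234), NR4A1 (-2.50, adjusted p = 0.269), NR4A3 (-2.21, adjusted p = 0.312) and JUNB (-1.23, adjusted p = 0.370), with a median of -0.96. Their list mean ran from 2.77 to 5.62 on the log2 CPM scale in *WSD* and from 3.29 to 4.05 in *T* + *WSD*, with overlap. The count of 5 immediate early genes was 2 without *T* replicate 16, without *WSD* replicate 20, outside the library batch or with the adipocyte covariate, and 8 without *WSD* replicate 21.

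The other lists held few members at the unadjusted threshold and no interaction gene. Smooth muscle and pericyte genes gave 1 positive, TAGLN (1.03, adjusted p = 0.223), and 1 negative, SMTN (-0.54, adjusted p = 0.281), of 16 (median 0.15). Skeletal muscle genes gave 2 positive of 9 (22.2%), TTN (1.34, adjusted p = 0.223) and TNNT3 (0.88, adjusted p = 0.293), and no negative (median 0.88). TTN ran from 305 to 619 CPM in *T* + *WSD* and from 74.4 to 205 in *WSD*. Within *T* + *WSD*, TNNT3 did not follow the mean log2 CPM of the skeletal muscle list. It was highest in replicates 7 and 8 (49.9 and 54.3 CPM), where the list mean was lowest (1.21 and 0.757). TTN was highest in replicate 10, as was the list mean, at 4.23. The lysosome list gave 1 positive gene and 1 negative, NEU1 (-0.40, adjusted p = 0.335), of 32 (median 0.11), cell division CENPE (0.72, adjusted p = 0.353) and MCM4 (-0.81, adjusted p = 0.196) of 27 (median 0.15), and Wnt, TGF-beta and Hippo signals YAP1 (0.42, adjusted p = 0.296) and WNT3 (-1.03, adjusted p = 0.365) of 35 (median 0.05). Of 38 chromatin remodellers and histone methyltransferases CHD7 was positive (0.34, adjusted p = 0.307, median 0.04). XBP1 was negative among 7 B and plasma cell genes (median -0.11) and SLC18A2 (-2.69, adjusted p = 0.354) among 6 mast cell genes (median -0.06).

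No member reached an unadjusted p under 0.05 in 21 cytokine and chemokine genes (median 0.04), 24 interferon-stimulated genes (median -0.12), 17 T and NK cell genes (median 0.04), 18 endothelial genes (median -0.09), 24 fibroblast and matrix genes (median 0.02), 17 circadian clock genes (median -0.37) and 6 hepatocyte, pancreas and erythroid genes (median -0.30). With DESeq2 in place of edgeR, 1 interferon-stimulated gene did, with a negative coefficient, and none of the other 6 lists had such a member. A coefficient that misses the threshold does not show equal effects on both diets.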

How the data were processed

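Omental WAT of 24 animals was sequenced, and the authors deposited 1 table of raw counts per Ensembl gene. Per the submitters' processing notes and the study's methods, reads were checked with FastQC 0.11.5, trimmed with Trimmomatic 0.36 and aligned with STAR 2.5.2b to rheMac8, and DESeq2 1.18.1 was used. The counting tool and its strand setting are not given in the sources used here, so antisense, overlapping and near-identical genes are uncertain. Of 32386 genes, 15207 passed edgeR's filterByExpr (minimum count 10, minimum total 15), and 12624 of them had a symbol from a gene name table, 210 of these from the study's own tables. No library of a group duplicated another in 60 pairs.

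Counts were fitted with edgeR 4.0.16 in R 4.3.3 (TMM, glmQLFit with robust=TRUE and legacy=TRUE, quasi-likelihood F-test, two-sided, Benjamini-Hochberg over all tested genes). The fit was tested on simulated data. An SE is the coefficient divided by the square root of F. The labels do not say more than that each library is 1 animal, and p-values measure the spread between these animals.

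Genes named are the 12 positive and 12 negative interaction genes with a symbol and the smallest p, the interaction genes of 42 lists with up to 3 further members of each at an unadjusted p under 0.05, and the study's synergistic genes. Other genes are named where they fill out a count and were chosen after their values were seen. Members and lists were chosen with earlier results of these data known. Alternatives were DESeq2 1.42.0, other normalizations, filters and dispersion settings, a stricter threshold, the library batch, cell content covariates and leaving out animals. No sequences are shown, and some genes that the rule names are not reported here.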

Additional observations from a re-analysis of the deposited data

Results flagged for a closer look

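The testosterone effect differed between the diets, by edgeR's test of the interaction itself, in 123 genes. Among the genes named by rule, 29 that passed are given here. Their log2 coefficients were positive for ANKRD10 (0.78), PNISR (0.79), Y_RNA (3.46), MIR5047 (1.15), INPP5F (1.05), GPR21 (1.26), LUC7L3 (1.0), TDRD6 (1.72), OGT (0.76), ZFC3H1 (0.61), DZIP1L (1.19), ABCC5 (0.99), LUC7L (0.55) and CLK4 (0.74). They were negative for TM7SF2 (-1.75), ADH1B (-2.63), RSL1D1 (-0.55), CARS2 (-0.80), ZNF768 (-0.64), CETP (-3.36), DDX56 (-0.49), PRPF31 (-0.46), FLYWCH1 (-0.56), IRS1 (-1.24), HSPBP1 (-0.66), COQ8A (-2.11), NDUFV1 (-1.13), TIMM44 (-1.07) and MRPL37 (-0.62).

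In 452 groups of 6 animals, covering 113 named genes, 1 animal lay far from the other 5 on the log2 CPM scale in 23 cases (5.09%), in 21 genes, where chance alone gives about 1 in 20 groups. The value is the gap to the nearest animal as a share of the range of the group. The outlying animal was the highest for INPP5F in *T* replicate 15 (0.685), GPR21 in *WSD* replicate 21 (0.738), IRS1 in *T* replicate 16 (0.647), KLF8 in *WSD* replicate 21 (0.651), PHB2 in *T* + *WSD* replicate 7 (0.74), UQCRC2 in *T* + *WSD* replicate 12 (0.907), MRPS34 in *T* replicate 14 (0.638), MRPS9 in *T* replicate 16 (0.784), SRSF5 in *T* + *WSD* replicate 8 (0.71), CIDEB in *T* replicate 17 (0.665), PPARGC1A in *WSD* replicate 20 (0.701), STAB1 in *T* + *WSD* replicate 9 (0.662) and SMTN in *T* + *WSD* replicate 12 (0.654). It was the lowest for INPP5F in *T* + *WSD* replicate 12 (0.645), PRPF31 in *T* replicate 13 (0.639), UQCRC1 in *C* replicate 1 (0.702), MRPL37 in *C* replicate 1 (0.681), PSMD3 in *T* replicate 17 (0.693), PPARGC1A in *C* replicate 1 (0.684), ERRFI1 in *T* replicate 14 (0.642), MSR1 in *WSD* replicate 24 (0.67), KRT19 in *T* + *WSD* replicate 8 (0.665) and MCM4 in *C* replicate 1 (0.667). *C* replicate 1 accounted for 4 of the 23 cases and *T* + *WSD* replicate 12 for 3.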

How the results depend on the processing

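No paired analysis was possible because the groups share no replicate numbers. The 123 interaction genes, all with opposite signs of the testosterone effects, became 481 (469 with opposite signs) with DESeq2, 38 (38) without a filter on low counts, 44 (44) at an adjusted p under 0.05 and 2 (2) in the libraries outside the batch. Of the alternatives chosen after seeing the data, the adipocyte list as a covariate gave 12 (12), and leaving out *C* replicate 1 and *WSD* replicate 20 together gave 33 (33). Leaving out single animals gave 40 (without *T* replicate 15) to 527 (without *WSD* replicate 21), with 40 to 507 of opposite sign. The count moved by over 1.5 times without *C* replicates 1 (65), 3 (61), 5 (78) and 6 (49), *T* replicates 13 (67), 14 (55), 15 (40), 16 (68) and 18 (81), *WSD* replicates 19 (185), 20 (59), 21 (527), 22 (71) and 24 (49), and each of the 6 *T* + *WSD* animals (48 to 68). The cause was not tested. The other alternatives gave 95 to 149, with 131 for the library batch as a covariate. All fitted genes of the 123 kept their sign in each alternative, and with DESeq2 122 were at an unadjusted p under 0.05. The alternatives reuse the libraries on which the 123 were chosen, so this is no separate support. No named gene's coefficient reversed. Libraries with a dominant gene held as few as 3125930 other counts.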
